A study of Mus musculus with 8 samples.

Results

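Regulatory T (Treg) cells restrain immune responses. They leave the thymus or arise in the periphery as central Treg (cTreg) cells, which recirculate through spleen and lymph nodes, and a share of them turns into effector Treg (eTreg) cells when stimulated. During that change chromatin opens at some regulatory elements and closes at others that had been open in the resting cell. The product of Pggt1b is the catalytic part of the type I geranylgeranyl transferase, which attaches a lipid anchor to small GTPases and other proteins so that they can work at membranes. The sites described here are elements that are open in wild-type (WT) cTreg cells, are less open in WT eTreg cells, and stand higher in eTreg cells that lack Pggt1b (Pggt1bKO) than in their WT counterparts.

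There were 1394 such sites among the 79758 intervals measured. They were chosen by 3 conditions on the CPM value of a group, which is 1000000 times the counts of its 2 libraries at a site over their counts at all sites. WT cTreg CPM had to be at least 4. The log2 ratio of WT eTreg to WT cTreg, with 0.5 CPM added to both, had to be at most -1. The log2 ratio of Pggt1bKO to WT eTreg, computed alike, had to be at least 1. The first 2 conditions alone were met by 3805 sites, called closed in WT eTreg below. The 2411 of these that missed the third condition are called the other closed sites. WT cTreg, WT eTreg and Pggt1bKO eTreg values therefore chose the sites and are given as a description. The Pggt1bKO cTreg libraries had no part in the choice.

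The assay was ATAC-seq, in which a transposase inserts sequencing adapters into open chromatin. The mouse Treg cells, from spleen and lymph nodes, were sorted from mixed bone marrow chimeras, animals whose blood cells come from marrow of more than 1 donor. The 4 groups were WT cTreg, WT eTreg, Pggt1bKO cTreg and Pggt1bKO eTreg cells, with 2 libraries each. The labels give no strain, age, allele, sorting marker or host for any group. Nor is it stated if a group's libraries came from different animals, and p-values therefore speak only of how far these libraries scatter, which could be technical scatter. No gene annotation of the build was at hand, so neither the cell type nor the genotype was checked against its genes and sites are named by position on mm9.

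Library totals ran from 1664702 to 14974253 counts, and the lowest 2 were the Pggt1bKO eTreg libraries. At the selected sites the median raw count was 101 and 105 in the WT cTreg libraries, 24 and 34 in the WT eTreg libraries, and 90 and 68 in the Pggt1bKO cTreg libraries. It was 15 and 12 in the Pggt1bKO eTreg libraries, where 405 of the 1394 sites had under 20 counts over both libraries together. Precision at a single site is thus set by the Pggt1bKO eTreg libraries in comparisons that use them. Their 2 libraries differed over 2-fold, on the scale of CPM + 0.5, at 301 of the sites, against 57 for WT eTreg, 18 for Pggt1bKO cTreg and 1 for WT cTreg. Fewer cells with a site open and less opening in each cell cannot be told apart in such data.

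Across libraries the selected sites stood in 4 levels, highest in Pggt1bKO cTreg and lowest in WT eTreg cells. The median site had 8.28 and 8.29 CPM in the WT cTreg libraries, and 2.14 and 2.27 CPM in the WT eTreg libraries. It had 10.2 and 9.51 CPM in the Pggt1bKO cTreg libraries. It had 6.65 and 7.21 CPM in the Pggt1bKO eTreg libraries. No group overlapped another in this median, but with 2 libraries against 2 an exact permutation test cannot go below p = 0.33, so the medians carry no test. The share of all counts that fell in the selected sites had the same order: 1.67 ± 0.016% for WT cTreg and 1.96 ± 0.090% for Pggt1bKO cTreg, then 1.42 ± 0.076% for Pggt1bKO eTreg and 0.476% for WT eTreg, whose libraries had 0.470% and 0.482% (SD, n = 2).

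**Figure D1:**
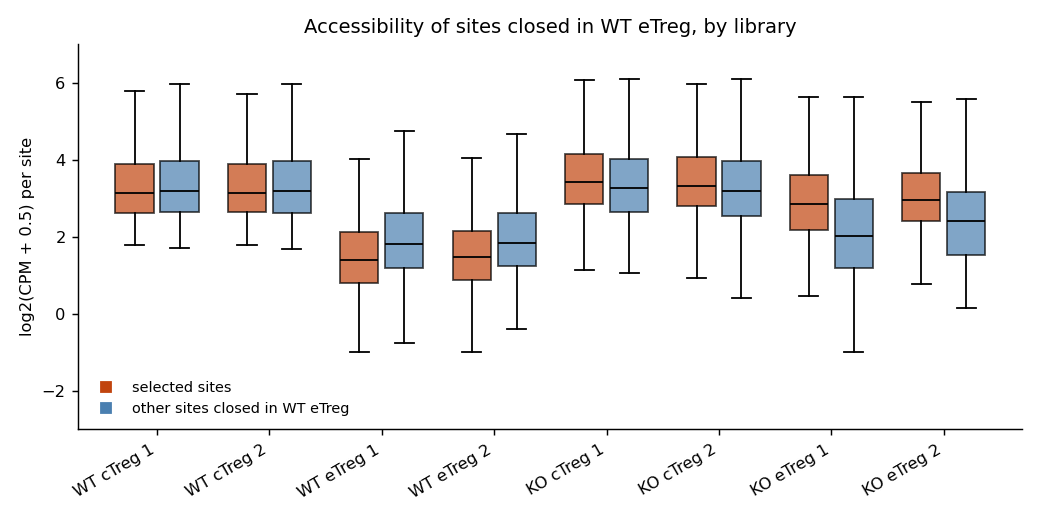
Accessibility per site as log2(CPM + 0.5) in each of the 8 libraries, for the 1394 selected sites (red) and the 2411 other closed sites (blue); KO stands for Pggt1bKO, boxes span the quartiles, the line is the median and whiskers reach the farthest site within 1.5 box heights. The red boxes lie above the blue ones in the Pggt1bKO eTreg libraries, which the selection sets, and slightly above them in the Pggt1bKO cTreg libraries, which it did not use.

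The name "not closed" holds only in part. In Pggt1bKO eTreg cells the median selected site had regained 84.1% of the WT fall on the log2 scale (quartiles 69.1% and 102%), and 380 of 1394 sites were at or above their WT cTreg level. At the other end, 119 sites were still at least 2-fold below WT cTreg. The sites are therefore described by their rule. In the other closed sites the median regained share was 31.8%. These values follow from the rule and carry no test.

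The 3 thresholds divided sites with nearly equal values. At the WT cTreg minimum, the 3 nearest selected sites had 100 counts over the WT cTreg libraries (4.02 CPM) and the 3 nearest excluded ones 99 counts (3.98 CPM). At the WT difference, chr17:89152391-89152713 was inside with 25.7 and 25.4 CPM in WT cTreg and 14.1 and 11.3 CPM in WT eTreg libraries. Just outside lay chr7:65956859-65957017 with 20.6 and 17.6 CPM in WT cTreg, 7.24 and 10.8 CPM in WT eTreg and 40.4 and 27.6 CPM in Pggt1bKO eTreg libraries, so the excluded site had the larger genotype difference. At the genotype difference, chr19:32419340-32419479 was inside with 23 counts over the Pggt1bKO eTreg libraries. On the other side chr2:18879114-18879387 was outside with 84. Membership near an edge is a matter of a few counts.

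How far the values that chose the sites carry over to libraries that did not was read by applying the rule to the replicate 1 libraries alone and looking at replicate 2, and the reverse. Replicate numbers are those of the sample titles. Sites meeting the rule on replicate 1 numbered 1572. Their median log2 ratio of Pggt1bKO to WT eTreg was 1.42 in replicate 1 and 1.01 in replicate 2, where 86.8% were above 0 and 50.4% still reached 1. The 2807 other closed sites of replicate 1 had 0.52, 73.5% and 26.4% in replicate 2, and all 79758 sites had -0.11, 43.5% and 9.41%. The direction thus recurred at most sites, and about the same share of sites was above as below the threshold.

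The reverse choice gave a like picture. The 1644 sites meeting the rule on replicate 2 had a median of 1.46 there and 0.92 in replicate 1, where 83.0% were above 0 and 46.7% reached 1. Their 2404 other closed sites had 0.38, 68.0% and 22.0%, and all sites -0.07, 45.1% and 9.69%. The rule was met on each replicate by itself at 651 sites, 649 of which are among the 1394. In both readings the genotype difference was smaller in the unused libraries than in those that chose the sites, and larger than in the other closed sites. With 1 library per group there is no test of these values.

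**Figure D2:**
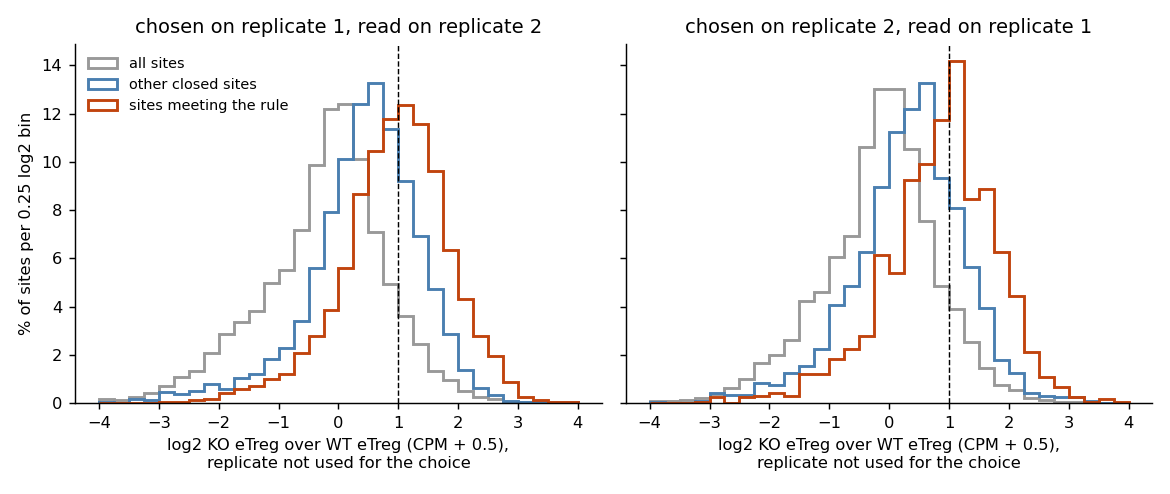
Distribution of the log2 ratio of Pggt1bKO (KO) to WT eTreg CPM in the replicate not used for the choice, as percent of sites per 0.25 log2 bin with values beyond 4 in either direction set to 4, for sites meeting the rule (red), other closed sites (blue) and all sites (grey). The dashed line marks the threshold of 1, which 50.4% of the red sites reach on the left and 46.7% on the right.

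The comparison with the best claim to independence is that of Pggt1bKO with WT cTreg cells, since no Pggt1bKO cTreg library entered the rule, although both WT cTreg libraries did. Accessibility at the selected sites was, on the whole, somewhat higher in Pggt1bKO than in WT cTreg cells. The median log2 fold change was 0.21 (quartiles -0.01 and 0.43), and 1026 of 1394 sites (73.6%) were above 0. Over all 75352 sites tested the median was -0.03 with 46.4% above 0, and over the other closed sites 0.00 with 50.1%. In edgeR, 61 selected sites (4.38%) were called higher at an adjusted p under 0.05, against 0.53% of all sites tested. None was called lower, against 1.69% of all sites. At an unadjusted p under 0.05 in edgeR, 293 selected sites were higher and 19 lower. The matching share over all sites was not computed, so nothing is read from these 2 counts. DESeq2 called 36 higher (2.58%, against 0.315% of all sites) and none lower (against 0.775%). With group weights, limma-voom called 141 higher (10.1%, against 1.55%) and 4 lower (0.287%, against 2.25%). All 1394 selected sites had passed the filter on low counts.

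Library by library the picture was the same. Both Pggt1bKO cTreg libraries lay above both WT cTreg libraries at 667 selected sites (47.8%), against 21.1% of all sites. They lay below both at 138 (9.90%), against 26.1% of all sites. In the unused replicates of the split reading the median log2 ratio of Pggt1bKO to WT cTreg was 0.15 and 0.22 for the sites meeting the rule. It was 0.01 and 0.10 for the other closed sites, and -0.02 and -0.05 for all sites. The higher level in Pggt1bKO cTreg cells was thus also seen in libraries that had not chosen the sites. At 0.10 the other closed sites stood above all sites too. Each group had a single library in these readings, so the medians carry no test. Whether a genotype difference shared by both replicates favoured these sites in the choice was not tested.

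The number of calls moved with single libraries, while the excess over all sites was there in each setting run. Leaving out WT cTreg replicate 1 gave 8 sites and leaving out replicate 2 gave 11. For Pggt1bKO cTreg these numbers were 12 and 32, and for Pggt1bKO eTreg 106 and 107, with 122 when both libraries were dropped. The lowest of these, 0.574% of the selected sites, stood beside 0.0638% of all sites in the same fit. The median log2 fold change was between 0.16 and 0.25 in the 13 other edgeR fits. It was not computed with DESeq2 or limma-voom.

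The 61 sites called higher in Pggt1bKO cTreg cells had a median of 14.4 CPM in WT cTreg, 3.52 CPM in WT eTreg, 26.1 CPM in Pggt1bKO cTreg and 12.8 CPM in Pggt1bKO eTreg cells. Their log2 fold changes ran from 0.34 to 1.77. At 53 of them both Pggt1bKO eTreg libraries were below both Pggt1bKO cTreg libraries, beside 29.2% of all sites, and 37 were called lower in that comparison, beside 4.52%. High Pggt1bKO cTreg values picked these 61 sites and are also the reference of that comparison, so both counts are favoured by the choice and are a description only. By group value, 27 were at or above WT cTreg in Pggt1bKO eTreg cells.

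The largest rise was at chr5:107630961-107631085, a 124 bp site. It had 5.82 and 6.56 CPM in the WT cTreg libraries, 0.893 and 1.27 CPM in WT eTreg, 22.2 and 20 CPM in Pggt1bKO cTreg, and 15.5 and 6.01 CPM in Pggt1bKO eTreg. The log2 fold change between cTreg genotypes was 1.77 ± 0.25 (SE, edgeR adjusted p = 1.61e-05). Both Pggt1bKO cTreg libraries exceeded every library of the other groups. At chr16:77644603-77644911 the values were 12.7 and 6.56 CPM in WT cTreg, 6.07 and 3.34 CPM in WT eTreg, 30.5 and 26.4 CPM in Pggt1bKO cTreg, and 10.6 and 20.4 CPM in Pggt1bKO eTreg, and the site rose by 1.57 ± 0.23 on the log2 scale (edgeR adjusted p = 4.1e-05). Both calls held in all alternatives run.

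The next 3 rises were called, but the call was lost when 1 of certain libraries was left out, while the log2 fold change stayed at 0.95 or more. chr9:85604004-85604235 had 7.05 and 4.82 CPM in WT cTreg and 16.1 and 15.4 CPM in Pggt1bKO cTreg, a rise by 1.41 ± 0.25 on the log2 scale (edgeR adjusted p = 0.00075, and 0.0995 with a rise by 1.18 without WT cTreg replicate 2). chr13:9359373-9359552 had 5.49 and 6 CPM against 18.1 and 11.2 CPM, a change of 1.35 ± 0.27 (edgeR adjusted p = 0.00269), a p that became 0.299 when Pggt1bKO cTreg replicate 1 was left out, and 0.115 or 0.0617 when replicate 1 or 2 of WT cTreg was. chr4:140157202-140157369 had 5.16 and 7.50 CPM against 14.2 and 18.2 CPM, a change of 1.34 ± 0.26 (edgeR adjusted p = 0.00167, 0.157 without WT cTreg replicate 1 and 0.0625 without Pggt1bKO cTreg replicate 2). In none of the 3 did the cTreg groups overlap.

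The second comparison asks whether the selected sites close between cTreg and eTreg cells when both lack Pggt1b. The rule used the Pggt1bKO eTreg libraries and favours high values in them, so the values of this comparison, lower and higher counts alike, are a description of the selected sites and no independent test. The median log2 fold change was -0.47 (quartiles -0.91 and -0.10) against -0.06 over all sites tested and -1.02 over the other closed sites. In edgeR, 243 selected sites (17.4%) were called lower in Pggt1bKO eTreg than in Pggt1bKO cTreg cells, where 4.52% of all sites were, and 9 (0.646%) were called higher, where 4.59% of all sites were. By CPM, 251 of the 1394 sites were at least 2-fold lower on the scale of CPM + 0.5. Among all sites with at least 4 CPM in WT cTreg, 2956 of 38174 (7.74%) were. Among the other closed sites, 1153 of 2411 (47.8%) were. The difference from the other closed sites is likewise set by the rule.

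Both Pggt1bKO eTreg libraries lay below both Pggt1bKO cTreg libraries at 754 selected sites (54.1%), against 29.2% of all sites. Of the other closed sites 82.2% had this order, a difference that the rule favours. At 76 selected sites (5.45%) both Pggt1bKO eTreg libraries lay above, against 20.6% of all and 0.664% of the other closed sites. The number called lower was 116 without Pggt1bKO cTreg replicate 1 and 121 without Pggt1bKO eTreg replicate 1, 140 with only the 4 compared libraries and 105 with group weights. The share called lower was above that of all sites in each of these settings. The lowest pair of shares was 7.53% of the selected against 1.21% of all sites, with group weights.

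In the unused replicates the selected and the other closed sites differed less in this comparison than the choice makes them look. For sites chosen on replicate 1 the median log2 ratio of Pggt1bKO eTreg to cTreg in replicate 2 was -0.56, and for the other closed sites -0.67. For sites chosen on replicate 2 it was -0.86 in replicate 1, and for the other closed sites -0.96. The WT ratio of eTreg to cTreg in the same unused libraries was -1.40 against -1.17, and -1.52 against -1.24. The sites meeting the rule thus had the larger WT difference and the slightly smaller Pggt1bKO difference.

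**Figure D3:**
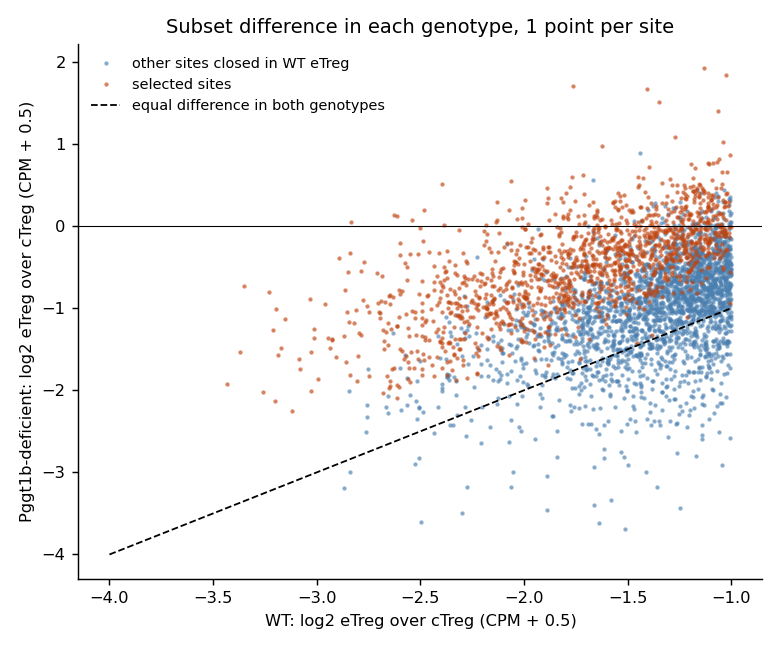
Log2 ratio of eTreg to cTreg CPM (+ 0.5) in WT (horizontal) and in Pggt1bKO cells (vertical), 1 point per site, for the 1394 selected sites (red) and the 2411 other closed sites (blue), with a dashed line of equal difference. Red points lie above the dashed line, as the rule favours, and most lie below 0, so that the sites were lower in eTreg than in cTreg cells of this genotype too.

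The sites that fell most between the Pggt1bKO subsets were weak in eTreg cells of both genotypes. chr7:25252992-25253181 had 13.9 and 14.3 CPM in WT cTreg, 0.625 and 1.6 CPM in WT eTreg, 24.7 and 22.8 CPM in Pggt1bKO cTreg, and 3.10 and 6.61 CPM in Pggt1bKO eTreg libraries. It fell by 2.35 ± 0.35 on the log2 scale from Pggt1bKO cTreg to eTreg cells (edgeR adjusted p = 1.52e-05), and the call held in all alternatives run. Its Pggt1bKO eTreg libraries were nevertheless above both WT eTreg libraries. At chr3:104435038-104435162 the fall was 2.31 ± 0.57 (edgeR adjusted p = 0.00669), with 6 counts left over the Pggt1bKO eTreg libraries and an adjusted p of 0.131 without replicate 1 of them and 0.0803 with group weights in limma-voom. Its Pggt1bKO cTreg level was 5.10-fold that of Pggt1bKO eTreg (interval 1.67 to 25.4, computed as for the next site).

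The narrowest of these shows what the rule admits at low counts. The 55 bp site chr13:28787113-28787168 had 3.20 and 4.98 CPM in WT cTreg, no count in WT eTreg, 5.65 and 4.33 CPM in Pggt1bKO cTreg, and 0.887 and 0.601 CPM in Pggt1bKO eTreg libraries. Its 3 counts in the latter made it a member. Pggt1bKO cTreg was 6.61-fold above Pggt1bKO eTreg, with a 95% Clopper-Pearson interval of 1.45 to 94.6 that takes every 2 counts as 1 observation and covers counting error only. The edgeR adjusted p was 0.02, and 0.103, 0.0945 and 0.0656 without Pggt1bKO cTreg replicate 1 or either Pggt1bKO eTreg replicate, 0.0761 with DESeq2 and 0.161 with limma-voom. WT cTreg was at least 17.9-fold higher than WT eTreg, taking 6 counts over the group as the limit that a count of 0 allows. This site was thus lower in eTreg than in cTreg cells of both genotypes.

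The 9 sites called higher in Pggt1bKO eTreg than in Pggt1bKO cTreg cells were at or above WT cTreg as well, and 3 of them had Pggt1bKO eTreg libraries over 2-fold apart. The 62 bp site chr4:122673329-122673391 had 6.48 and 7.11 CPM in WT cTreg, 3.93 and 2.00 CPM in WT eTreg, 3.61 and 7.97 CPM in Pggt1bKO cTreg, and 27.5 and 15.6 CPM in Pggt1bKO eTreg libraries. Its log2 fold change was 1.97 ± 0.35 (edgeR adjusted p = 0.000234, and 0.0637 without Pggt1bKO eTreg replicate 1). It was highest in both Pggt1bKO eTreg libraries, with no overlap with any other group.

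The other named rises rested on 1 library each. At chr2:139815837-139815910 the Pggt1bKO eTreg libraries had 29.3 and 9.01 CPM, against 4.86 and 6.15 CPM in Pggt1bKO cTreg (log2 fold change 1.89 ± 0.36, edgeR adjusted p = 0.000426, and 0.418 without Pggt1bKO eTreg replicate 1). At chr2:112347778-112347939 they had 57.2 and 309 CPM, against 51.0 and 51.6 CPM (1.78 ± 0.27, edgeR adjusted p = 1.99e-05, and 0.53 without Pggt1bKO eTreg replicate 2, with a change of 0.18; 0.136 with DESeq2). In that site WT cTreg libraries had 44.8 and 42.7 CPM and WT eTreg libraries 14.3 and 17.6 CPM. Without replicate 2 the Pggt1bKO eTreg level is thus close to that of the cTreg groups.

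The strongest elements of the set are shown by the 10 selected sites with the highest WT cTreg level. At all 10, both WT eTreg libraries were below every library of the other 3 groups. The first, chr2:150132408-150133268, is 860 bp wide and had 127 and 127 CPM in WT cTreg, 46.4 and 38.3 CPM in WT eTreg, 149 and 134 CPM in Pggt1bKO cTreg, and 102 and 103 CPM in Pggt1bKO eTreg libraries. It fell by 0.45 ± 0.11 between the Pggt1bKO subsets on the log2 scale (edgeR adjusted p = 0.0051). The next, chr8:36691063-36691702, had 97.7 and 101 CPM, 36.8 and 38.6 CPM, 104 and 99.5 CPM, and 76.3 and 85.3 CPM in the same order of groups (edgeR adjusted p = 0.0526 for the Pggt1bKO subsets). Both sites kept most of their cTreg level in Pggt1bKO eTreg cells.

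Others stayed further down. chr16:52142902-52143642 had 93.1 and 90.2 CPM in WT cTreg, 22.5 and 22.6 CPM in WT eTreg, 97.5 and 87.2 CPM in Pggt1bKO cTreg, and 41.2 and 55.3 CPM in Pggt1bKO eTreg, a fall by 0.95 ± 0.13 between the latter (edgeR adjusted p = 4.64e-06). At chr6:103462047-103462554 the values were 67.9 and 72.7, 11.6 and 14.7, 77.9 and 90.6, and 40.8 and 46.9 CPM, a fall by 0.94 ± 0.14 (edgeR adjusted p = 1.98e-05). In these 2 sites Pggt1bKO eTreg cells were between the WT subsets, as at the 2 sites above, but further below the cTreg groups on the log2 scale.

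chr10:120857078-120857407 also stood higher in Pggt1bKO cTreg cells, with 100 and 97.8 CPM in WT cTreg, 27.2 and 28.2 CPM in WT eTreg, 130 and 121 CPM in Pggt1bKO cTreg and 75.4 and 84.1 CPM in Pggt1bKO eTreg. Its log2 fold change was 0.34 ± 0.09 between cTreg genotypes (edgeR adjusted p = 0.0262) and -0.65 ± 0.11 between Pggt1bKO subsets (edgeR adjusted p = 9.04e-05). It was the only 1 of the 10 called between the cTreg genotypes.

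The exception in the other direction was on chromosome 18. chr18:79454167-79455003 had 83.2 and 92.6 CPM in WT cTreg, 34.7 and 42.5 CPM in WT eTreg, 95.2 and 91.4 CPM in Pggt1bKO cTreg, and 145 and 119 CPM in Pggt1bKO eTreg, a rise by 0.52 ± 0.11 on the log2 scale between the latter (edgeR adjusted p = 0.00191). Further along the chromosome, chr18:79500079-79500747 had 81.4 and 83.5, 17.5 and 19.4, 87.6 and 81.4, and 53.7 and 56.5 CPM, a change of -0.61 ± 0.13 (edgeR adjusted p = 0.00136). These 2 sites thus moved in opposite directions between the Pggt1bKO subsets. The remaining 3, chr14:19498129-19498516, chr14:17005766-17006384 and chr9:80165758-80166230, had 54.1 to 87.8 CPM in Pggt1bKO eTreg libraries and were not called in either comparison.

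**Figure D4:**
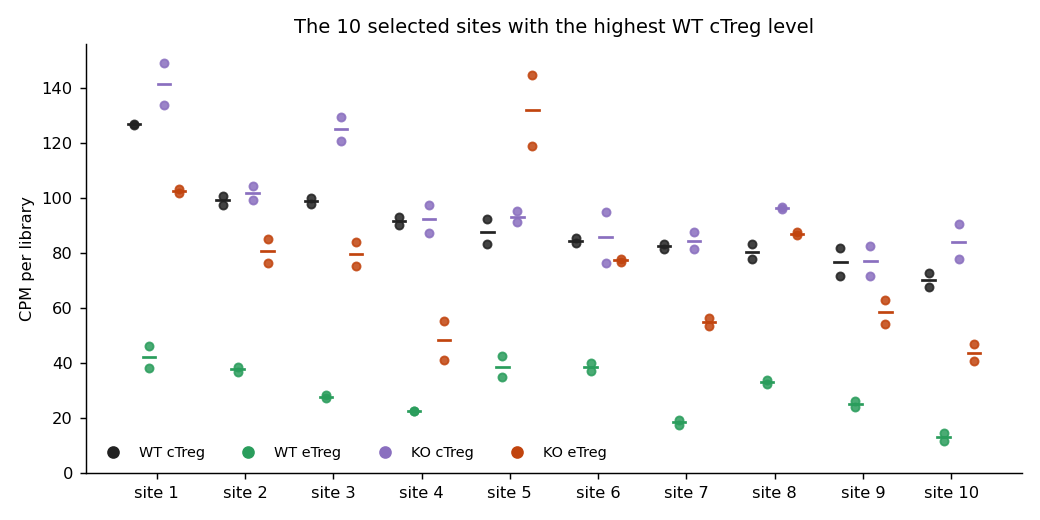
CPM in each library (points) and group mean (short lines) at the 10 selected sites with the highest WT cTreg level, in descending order; KO stands for Pggt1bKO. WT eTreg (green) is lowest at every site, and Pggt1bKO eTreg (red) exceeds the other groups only at site 5, chr18:79454167-79455003.

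A site was taken as covered in Pggt1bKO eTreg cells with a mean raw count of at least 20 there and no overlap with WT eTreg. Since pairs of counts are frequent, 20 counts can stand for fewer observations. Among the covered sites, the largest genotype differences in eTreg cells were of 2 kinds. In one, the Pggt1bKO eTreg libraries were near the cTreg libraries. chr18:84471960-84472183 had 13.0 and 11.8 CPM in WT cTreg, 1.43 and 1.20 CPM in WT eTreg, 17.3 and 14.7 CPM in Pggt1bKO cTreg, and 14.2 and 10.8 CPM in Pggt1bKO eTreg. chr5:147785708-147785889 had 7.54 and 8.29, 1.34 and 0.534, 13.1 and 10.3, and 15.5 and 9.61 CPM. chr9:85604004-85604235, raised in Pggt1bKO cTreg cells, had 0.536 and 0.467 CPM in WT eTreg and 11.5 and 8.41 CPM in Pggt1bKO eTreg.

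In the other kind a Pggt1bKO eTreg library was far above all cTreg libraries. At chr15:6560778-6561002 it was replicate 2, with 39.6 CPM against 20.4 CPM in replicate 1 and 12.1 to 15.4 CPM in the 4 cTreg libraries. At chr2:93612372-93612489 it was replicate 1, with 38.6 CPM against 7.81 CPM in replicate 2 and 4.26 to 8.69 CPM in the cTreg libraries. These differences were used by the rule, so no test is given for them.

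For the contrasts that the rule used, edgeR called 1042 of the 1394 sites (74.7%) higher in Pggt1bKO than in WT eTreg cells, beside 4.66% of all sites. It called all 1394 lower in WT eTreg than in WT cTreg cells, beside 14.9%. Both Pggt1bKO eTreg libraries lay above both WT eTreg libraries at 1318 sites (94.5%), beside 22.5%. The higher ratio of eTreg to cTreg without Pggt1b than in the WT was called at 332 sites (23.8%) by the interaction test, beside 0.957%. The selection fixes the direction of these counts.

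A narrower set was defined by asking every library to meet the rule, with the lowest library of the higher group compared with the highest of the lower group. It held 489 sites, all among the 1394. Their median was 9.86 CPM in WT cTreg, 2.25 CPM in WT eTreg, 12.2 CPM in Pggt1bKO cTreg and 8.67 CPM in Pggt1bKO eTreg cells. Of these, 381 were above WT cTreg in Pggt1bKO cTreg cells, beside 46.1% of all sites, and 33 were called higher there, beside 0.53%. In Pggt1bKO eTreg cells 91 were called lower than in Pggt1bKO cTreg cells, beside 4.52%. The order of the 4 groups was that of the full set, of which these sites are a part, and the rule sets much of it.

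Width, which the rule did not use, varied little between the selected and the other closed sites. The median width was 159.5 bp in the selected, 158 bp in the other closed and 104 bp in all sites. Of closed sites, 34.3% to 37.5% were selected in each of the width classes up to 800 bp, and 6 of 17 above it. By WT cTreg level, which the rule did use, the share was 37.1% at 4 to 6 CPM, 38.2% at 6 to 10 CPM, 37.0% at 10 to 20 CPM, 33.5% at 20 to 40 CPM and 27.3% (39 of 143) above 40 CPM. Neither width nor level therefore set the sites apart from the other closed sites by much, and these descriptions carry no test.

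The depth of the WT fall did go with selection. Of sites with a WT log2 ratio above -1.5, 23.4% were selected, between -2 and -1.5 it was 45.6%, between -3 and -2 it was 71.9%, and all 19 at or below -3 were. The third condition is easier to meet from a low WT eTreg value, so this is partly built into the rule. In the same classes the median log2 ratio of Pggt1bKO eTreg to cTreg at the selected sites was -0.13, -0.50, -0.98 and -1.53. The rule builds in this order too, since it asks for a fixed rise over WT eTreg and so holds the class with the shallowest WT fall near the cTreg level. Nothing is read from it.

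Selected sites were found on all 20 chromosomes of the table (19 autosomes and X) and on 1 unplaced contig. Their share of the closed sites ran from 32.0% on chromosome 14 to 47.8% on chromosome 19, where it was 22 of 46. The X chromosome had 18, which were 0.860% of its 2092 sites and 18 of its 53 closed sites, so the X held few closed sites rather than few selected among them. Chromosome 18 had 51, or 39.8% of its closed sites.

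Many selected sites lay close together. Within 10 kb of another selected site lay 368 of them (26.4%), and the median distance to the nearest was 55.2 kb. Of the other closed sites 15.2% had a selected site within 10 kb, and their median distance to one was 137 kb. The distance to the nearest site of any kind was alike, with 87.0% and 85.6% within 10 kb. Of 7231 windows of 200 kb with a site, 891 held a selected site, and 118 windows with 3 or more held 455 of the 1394.

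Sites near the selected ones leaned the same way. Within 10 kb there were 3826 sites that were not closed in WT eTreg by the rule, so that their own WT values set them apart from the closed sites and their WT median is conditioned on that. Their median log2 ratio was -0.47 for WT eTreg over WT cTreg and 0.18 for Pggt1bKO over WT eTreg, with 59.7% above 0 in the latter. Near other closed sites and no selected one, 5198 sites had medians of -0.36 and 0.03, with 52.0% above 0. All sites had -0.03 and -0.06, with 45.9% above 0. For Pggt1bKO over WT cTreg the medians were 0.02, -0.02 and -0.03 in that order. The neighbours share libraries with the selected sites, and parts of 1 open region may be listed as several sites.

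The densest window, 51.8 to 52.0 Mb of chromosome 17, held 10 selected sites among 16 closed and 48 in all. The 10 had a median of 10.8 CPM in WT cTreg, 1.47 CPM in WT eTreg, 13.2 CPM in Pggt1bKO cTreg and 7.78 CPM in Pggt1bKO eTreg cells. All but 1 were lower in Pggt1bKO eTreg than in Pggt1bKO cTreg cells, at log2 ratios from -1.26 to -0.11, and chr17:51945955-51946200 had 0.20. Of the 38 sites there that were not selected, 25 were higher in Pggt1bKO than in WT eTreg cells, with a median log2 ratio of 0.33. Over all sites 45.9% were higher, with a median of -0.06. The 38 include other closed sites, whose low WT eTreg values favour a high ratio, and several sites with under 1 CPM in both eTreg groups. The window was also picked for its selected sites, so these values are a description. Most of the 10 selected sites were short of the cTreg level in Pggt1bKO eTreg cells.

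Within it the sites differed. chr17:51965871-51966139 had 30.7 CPM in WT cTreg, 12.5 CPM in WT eTreg, 33.9 CPM in Pggt1bKO cTreg and 31.4 CPM in Pggt1bKO eTreg as group values, nearly the cTreg level. By contrast, chr17:51901953-51902077 had 30.4, 6.69, 37.8 and 18.9 CPM in that order. chr17:51939665-51939867 had 12.0, 1.45, 17.2 and 6.89 CPM. A like cTreg level thus went with different levels in Pggt1bKO eTreg cells.

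**Figure D5:**
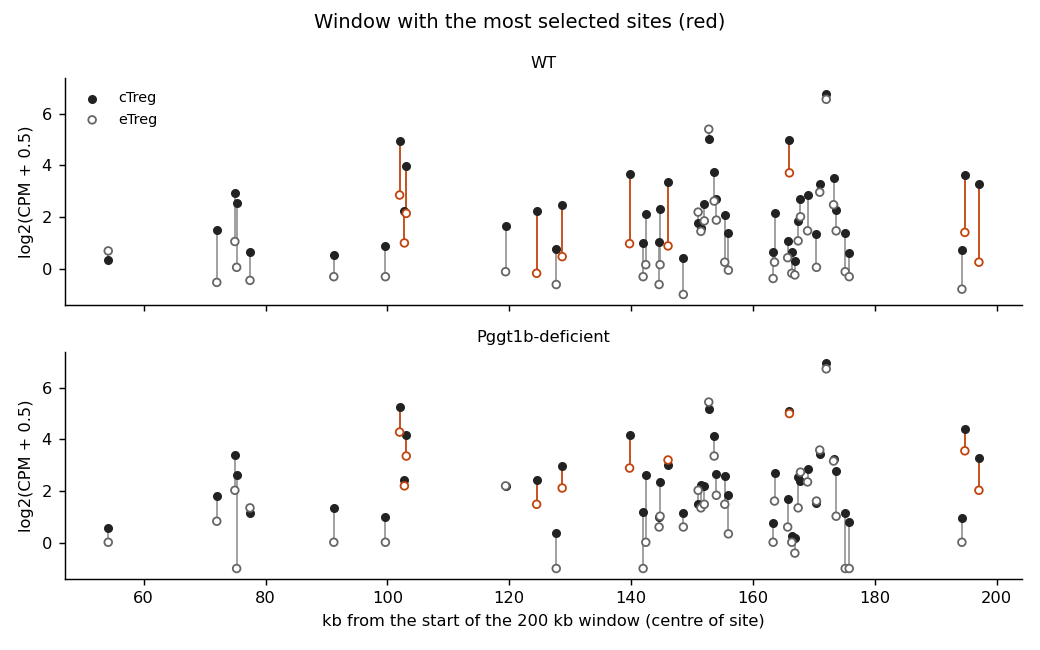
Sites of the 200 kb window with the most selected sites, by distance in kb from its start; filled points are cTreg and open points eTreg group values as log2(CPM + 0.5), joined by a line per site, with WT above and Pggt1bKO below and the 10 selected sites in red. The red lines are shorter below than above, and 9 of the 10 still point down from cTreg to eTreg in the lower panel.

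The windows next in number, with ties kept, were at 107.6 to 107.8 Mb of chromosome 5 and 142.8 to 143.0 Mb of chromosome 6 with 8 selected sites each, and at 98.4 to 98.6 Mb of chromosome 10, 15.2 to 15.4 Mb of chromosome 4 and 65.8 to 66.0 Mb of chromosome 7 with 7 each. In the chromosome 6 window the selected sites had medians of 7.28 and 6.76 CPM in Pggt1bKO cTreg and eTreg cells, and the median of their log2 ratios was -0.08, nearly the cTreg level. The chromosome 7 window had 16.6 and 15.3 CPM, but its median log2 ratio per site was -0.43, close to that of all selected sites. In the chromosome 10 window the medians in CPM were 28.1 and 8.16 CPM, and in the chromosome 4 window 10.5 and 4.34 CPM. In both, the Pggt1bKO eTreg median was above the WT eTreg median, which was 2.94 and 1.30 CPM. The median log2 ratios per site were -0.92 and -0.95, smaller falls than the CPM medians imply. The chromosome 5 window, which holds the largest rise between cTreg genotypes, had 14.7 and 10.1 CPM against 9.63 CPM in WT cTreg.

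Unselected sites of these windows differed as well. Of 44 in the chromosome 6 window, 36 were higher in Pggt1bKO than in WT eTreg cells, with a median log2 ratio of 0.52. In the chromosome 7 window it was 32 of 44 with 0.37, and in the chromosome 5 window 17 of 25 with 0.56. In the chromosome 10 window it was 14 of 26 with 0.02, and in the chromosome 4 window 12 of 18 with 0.17. Over all sites 45.9% were higher, with a median of -0.06, and the medians were farthest above that in the first 3 windows. The unselected sites include other closed sites, whose low WT eTreg values favour a high ratio. As the windows were picked for their selected sites, these counts are a description.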

How the data were processed

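Raw whole-number counts per interval were used as deposited, in 1 table of 8 libraries and 79758 intervals. Build mm9 (NCBIM37) and the tools MACS2 2.1.1, bedtools, Trimmomatic 0.36, SAMtools and Picard 2.9.4 are named in the submitters' processing notes. For the aligner, read shift, peak threshold, pooling and counting unit, the entry is: not given in the sources used here. Even values made up 66.1% to 77.4% of the counts between 1 and 10, depending on the library, so that pairs of counts are frequent and errors at single sites exceed counting error. Whether starts count from 0 or 1 is not stated. The reference tables at hand are of another build, so the planned gene, marker and motif checks were not run and no sequence is shown.

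Sites, lists and comparisons were chosen with earlier results of these data known. Levels are CPM over column totals. Fold changes, standard errors (the size of the log2 fold change divided by the root of its F statistic) and adjusted p-values come from edgeR 4.0.16 in R 4.3.3: filterByExpr (75352 sites), TMM scaling, 1 mean per group over all 8 libraries, quasi-likelihood F tests and Benjamini-Hochberg adjustment over all sites tested, called under 0.05. Alternatives used DESeq2 1.42.0 and limma 3.58.1. The fit was also run on simulated counts with known changes, without the subset differences of these data, and no result here rests on it. Without a replicate, the lone library of a group is taken to vary like the others. Groups were taken from sample titles. Sites are named by rule: the 10 highest in WT cTreg, the 8 largest covered genotype differences in eTreg, the 5 and 3 largest called changes per direction in the 2 comparisons, 3 on each side of each threshold, and the 5 densest windows with ties. Further sites of the densest window were chosen after their values were seen.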

Additional observations from a re-analysis of the deposited data

Results flagged for a closer look

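The subset difference differed between genotypes at 332 of the 1394 selected sites (23.8%) by edgeR's interaction test at an adjusted p under 0.05, all with the higher ratio of eTreg to cTreg in Pggt1bKO cells, beside 0.957% of all sites tested. The rule uses 3 of the 4 groups in this contrast and fixes its direction, so the count is no independent evidence. Of the other closed sites 42 (1.74%) were called in that direction.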

How the results depend on the processing

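The rule found 2124 sites with a WT cTreg minimum of 2 CPM and 725 with 8, 2127 with a log2 threshold of 0.8 and 389 with 1.5, and 489 when every library had to meet it. TMM library sizes, other pseudocounts, single replicates and leaving out a library gave 1054 to 1644.

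Sites called higher in Pggt1bKO than in WT cTreg cells, 61 in the report, numbered 183 with only the 4 compared libraries, 36 with DESeq2, 141 with group weights in limma-voom, 122 without both Pggt1bKO eTreg libraries (chosen after seeing the data), and 8 to 107 without 1 library. Sites called lower, none in the report, numbered 6, 0, 4, 1 and 0 to 2 in the same settings. Sites called lower in Pggt1bKO eTreg than in Pggt1bKO cTreg cells, 243 in the report, numbered 140 with only the 4 libraries, 105 with group weights and 116 to 239 without 1 library. With only the 4 libraries, 13.1% of the selected and 2.18% of all sites were called higher in cTreg cells, and 0.430% and 2.82% lower. Without both Pggt1bKO eTreg libraries these shares were 8.75% and 1.56% higher, and 0.0717% and 2.61% lower. Between the Pggt1bKO subsets, 10.0% and 2.45% were called lower with the 4 libraries, and 7.53% and 1.21% with group weights. The causes of the moves in these counts were not tested beyond the libraries and tool named. The median log2 fold changes, computed for the edgeR fits alone, ran from 0.16 to 0.25 between cTreg genotypes and from -0.56 to -0.42 between the Pggt1bKO subsets, and no result computed reversed.

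Same-numbered libraries deviated from their group means with correlations of -0.02 to 0.06. Deviations of single libraries also hold counting scatter, so these values cannot tell whether the numbers pair the libraries. With the replicate block the counts were 57 higher and 0 lower in cTreg cells and 237 lower and 9 higher between the Pggt1bKO subsets. Depth limits single sites most in the Pggt1bKO eTreg libraries.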
